A study of Homo sapiens with 2 samples.

Results

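Heat shock proteins and their J-domain partners were compared between the melanoma line IGR39, which came from an achromic primary tumour of the skin, and the line IGR37, which came from a metastasis in a lymph node. A gene was a member when the platform annotation gave a probe set a single symbol beginning with DNAJA, DNAJB, DNAJC, HSPA, HSPB, HSPD, HSPE, HSPH or HSP90, or when it was HSF1, HSF2 or CRYAB. This rule found 75 genes on 175 probe sets, of 19775 genes and 54675 probe sets in all. HSF2 was not analysed here, nor were HSPA8, HSPA1A and HSPA1B, whose probe sets carry several symbols. The rule also took HSPBAP1, which encodes a protein that binds HSPB1, and 5 noncoding transcripts that are antisense or divergent to chaperone genes.

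Each line was measured on 1 Affymetrix Human Genome U133 Plus 2.0 array of total RNA, from cells grown in DMEM with serum and under no treatment that the labels name. With 1 array per line no test was possible, and no difference has a replicate check or an error between cultures. Values are log2 levels after RMA, differences are IGR37 minus IGR39, and a difference of 1 is 2-fold. Among 8 melanocyte lineage markers fixed for this check, 7 were measured. All 7 reached log2 6 in IGR37 and 1 of them, MITF, did so in IGR39, so most defining markers of the lineage were below that level in IGR39. None of 8 measured lymphocyte and macrophage markers reached that level in either line, with a highest value of 4.33. Of 8 fibroblast and endothelial markers, 3 reached it in the brighter line. COL1A2 read 6.27 in IGR39 against 3.84 in IGR37, LUM 3.41 against 6.26 and COL1A1 5.87 against 6.15. Of 5 measured keratinocyte markers only KRT10 reached it, at 9.13 and 9.08. The part of these markers in the chaperone differences was not tested.

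Molecular chaperones bind unfolded proteins and help them fold, move between compartments or be degraded. HSP70 proteins (HSPA genes) clamp onto short exposed stretches using ATP, J-domain proteins (DNAJ genes) deliver clients and start the ATP cycle, and HSP110 proteins (HSPH1 and HSPA4) reset it by exchanging the nucleotide. HSP90 finishes the folding of kinases and receptors, small heat shock proteins (HSPB genes and CRYAB) hold unfolded clients, and HSPD1 with HSPE1 forms the folding chamber of mitochondria. HSF1 drives the heat shock response from promoter elements, while stress in the endoplasmic reticulum (ER) acts on its own chaperone genes through other elements. Melanoma cells depend on HSP90 for mutant BRAF and other kinases.

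The promoter elements are shown for the genes that the comparison turns on, so that the levels can be read beside them. RefSeq windows of 250 bases upstream of annotated starts (build GRCh38.p14) were found by symbol for 66 of the 75 genes, with 86 windows in all. They were searched on both strands for GAANNTTC or TTCNNGAA, the 2-unit heat shock element, and for the 3-unit element, in which both overlap. Of the chaperone windows, 17 held a 2-unit match and 5 a 3-unit match. Among 35116 windows of all genes, 11.6% held a 2-unit match and 0.441% a 3-unit match. Capitals mark the matches, and each sequence runs 5′ to 3′ on the strand of its gene. The stretches of HSPB8 and DNAJB6 lie outside every annotated gene, while the others precede a start that lies inside the span of their own gene.
HSPB8, chr12:119178813-119178880, plus strand: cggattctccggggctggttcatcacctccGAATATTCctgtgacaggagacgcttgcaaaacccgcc
DNAJA4, chr15:78264460-78264489, plus strand: ggaacctccgcGAAGGTTCtaggcctttgt
DNAJA4, chr15:78264499-78264528, plus strand: gtctccttgcgGAAGCTTCcgccggcgccg
DNAJB4, chr1:78004830-78004859, plus strand: agcatttgctgTTCTAGAAagtacagagac
DNAJB6, chr7:157336843-157336915, plus strand: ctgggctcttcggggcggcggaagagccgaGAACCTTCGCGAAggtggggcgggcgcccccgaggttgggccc
HSP90AA1, chr14:102087104-102087133, minus strand: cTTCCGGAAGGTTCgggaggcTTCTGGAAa
HSP90AB1, chr6:44247769-44247798, plus strand: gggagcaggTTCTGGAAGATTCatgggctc
HSP90AB1, chr6:44247822-44247851, plus strand: ctgagattgTTCTGGAAGCTTCtggattct
HSPD1, chr2:197500061-197500090, minus strand: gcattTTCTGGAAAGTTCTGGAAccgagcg

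The ER stress element, CCAAT and CCACG with 9 bases between them, through which the ER stress factor ATF6 acts, was matched in the windows of HSPA5 and HSP90B1. It occurred in 0.074% of all windows. These ER chaperones are shown because their brightest probe sets differed little between the lines, as given below. The stretch of HSPA5 lies outside annotated genes, and the printed one of HSP90B1 falls in the pseudogene TTC41P. HSP90B1 also has a match on the opposite strand nearer its start, at -89 to -71, which is not printed.
HSPA5, chr9:125241361-125241439, minus strand: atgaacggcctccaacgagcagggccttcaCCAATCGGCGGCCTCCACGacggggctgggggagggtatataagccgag
HSP90B1, chr12:103930210-103930239, plus strand: ccctgaCCAATCGGAAGGAGCCACGcttcg

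Most chaperone genes differed by less than 2-fold between the primary and the metastasis line. Of the 75 genes, 47 reached log2 6 in the brighter line, the minimum used for counts. Of these 47, 5 were higher in IGR37 by 2-fold or more and 1 was lower by as much. Over 8501 genes at that minimum, 11.4% passed this limit upwards and 9.5% downwards, or 21% in either direction. The corresponding share of chaperone genes higher in IGR37, 10.6%, was near the background, and the share lower was 2.13%. The median difference of the 47 was 0.07, the same as over all genes, because the middle gene of both rankings is DNAJA2. Where both lines had to reach log2 6, 2 of 42 chaperone genes passed 2-fold upwards and 0 downwards, beside 7.26% and 5.35% of 6931 genes. The median size of the differences there was 0.37 for chaperone genes and 0.38 for all genes.

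**Figure D1:**
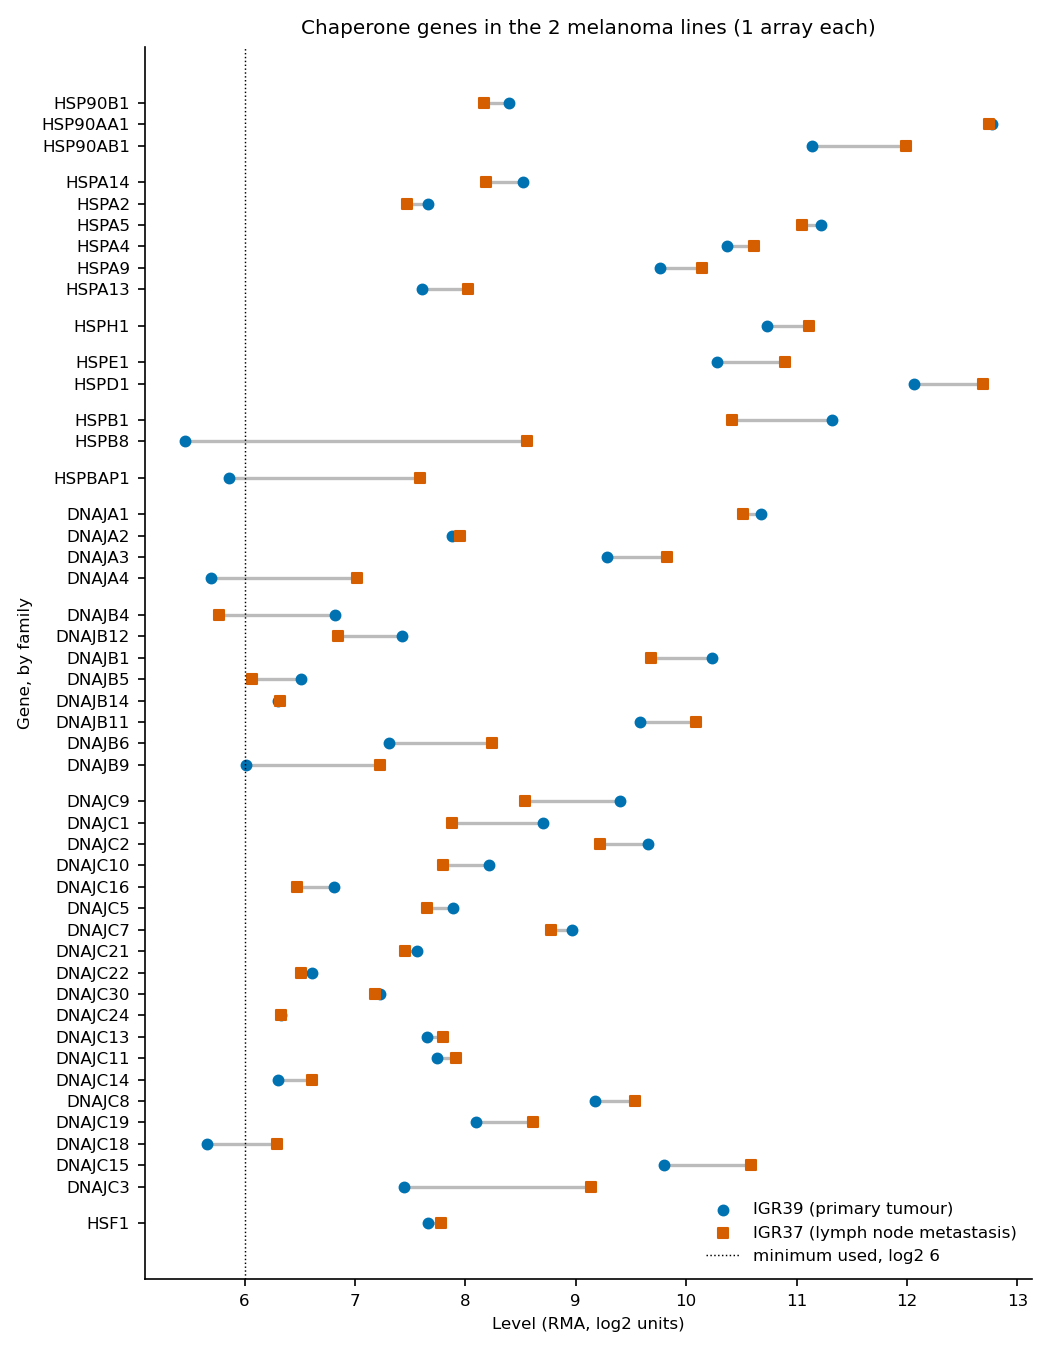
Level of each chaperone gene at or above log2 6 in the brighter line, on the RMA log2 scale, with IGR39 as blue circles and IGR37 as orange squares, 1 array each. Most pairs lie close together, and HSPB8, with 5.46 in IGR39 and 8.55 in IGR37, has the longest line.

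Technical yardsticks set the scale for these differences. The 18 hybridisation spike-in probe sets, which cover the array alone, differed by 0.02 in the median, with an SD of 0.08. For the 24 poly-A spike-ins, added before labelling, these values were 0.25 and 0.31. Several probe sets reached log2 6 in 27 chaperone genes, and their pooled SD within genes was 0.27, beside 0.40 over 3178 genes. Differences under about these sizes cannot be told from the choice of probe set. Across the 47 genes the levels in the lines correlated with a Pearson's r of 0.91, and across all 8501 genes with 0.73, as a description of genes measured on the same arrays.

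The widest difference was that of HSPB8, a small heat shock protein that works with the cochaperone BAG3 to send damaged proteins to autophagy. HSPB8 read 5.46 in IGR39 against 8.55 in IGR37, which is 3.09 or 8.54-fold. IGR39 lay below the minimum, and the value rests on 1 probe set, since the other stood at 3.51 and 3.53. Its mean over both probe sets was 1.56. BAG3, its partner, ran the opposite way, from 9.98 in IGR39 to 8.32 in IGR37 on its only probe set.

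HSPB1, the most widely expressed small heat shock protein and a stabiliser of actin, was the other member of its family at this level. HSPB1 read 11.32 in IGR39 against 10.41 in IGR37, and its difference of -0.91 did not reach 2-fold. The remaining 6 genes of the family were below log2 6 in both lines. Among these was CRYAB, the alpha-B crystallin of lens and muscle, at 4.27 and 5.22. HSPB2, HSPB3, HSPB6, HSPB7 and HSPB9, which are mostly genes of muscle or testis, had differences from -0.29 to 0.29. HSPBAP1, which encodes a partner of HSPB1, read 5.86 in IGR39 against 7.59 in IGR37, or 1.73 on its only probe set.

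The cytosolic HSP90 genes were unlike each other. HSP90AA1, the stress-inducible form, read 12.77 in IGR39 against 12.74 in IGR37, and its 4 probe sets differed by -0.24 to 0.08. HSP90AB1, the constitutive form, was at 11.14 and 11.99, a difference of 0.86. Its other probe sets gave 1.27 and 1.50, so all 3 were higher in IGR37, and their mean was 1.21. Both genes hold 3-unit heat shock elements in the sequences above. HSP90B1, the ER form that folds integrins and Toll-like receptors, was at 8.40 and 8.17.

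None of the 6 HSPA genes at this level differed by 2-fold, while 21% of all genes at the minimum did. The 6 do not include HSPA8, HSPA1A and HSPA1B, which were not analysed here. HSPA5, the ER chaperone BiP and the usual readout of ER stress, read 11.22 in IGR39 against 11.05 in IGR37. Its dimmer probe set read 6.26 in IGR39 against 5.74 in IGR37, a difference of -0.52. HSPA9, the mitochondrial import motor, was at 9.77 and 10.14. HSPA4, an HSP110-type exchange factor, was at 10.37 and 10.61, and HSPH1, its heat-inducible relative, was at 10.73 and 11.11. HSPA13 had the largest positive difference of the 6, at 0.42, and HSPA14, a ribosome-associated form, the largest negative, at -0.33. HSPA2, best known from spermatogenesis, was at 7.66 and 7.47. HSPA6, which is scarcely expressed without stress, stood at 4.46 and 4.70, below the minimum in both lines. The other 4 below it were HSPA1L, HSPA4L, HSPA12A and HSPA12B.

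Of 8 chaperone genes of the mitochondrion at the minimum, 7 had differences above 0 and none reached 2-fold. Over all genes at the minimum 21% reached 2-fold in either direction. HSPA9 at 0.38 and DNAJC11 at 0.17 lay under the probe-set SD of 0.40. HSPD1, the large chaperonin subunit, read 12.06 in IGR39 against 12.68 in IGR37, while a second bright probe set differed by 0.65. HSPE1, the lid of the chamber and its divergent neighbour on chromosome 2, was at 10.28 and 10.89. The pair thus had differences of 0.62 and 0.61. DNAJA3, the J-domain partner of HSPA9 in the matrix, was at 9.28 and 9.83. DNAJC19, which belongs to the import motor of the inner membrane, was at 8.09 and 8.61, and DNAJC15, its relative, was at 9.80 and 10.59. The second probe set of DNAJC15 did not share the difference, at 6.96 and 6.92.

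DNAJC11, of the cristae-organising complex, differed by 0.17, and DNAJC30 by -0.05. The median of the 8 was 0.53, and 54.5% of all genes at the minimum were above 0. Centring on housekeeping genes left 6 of 8 above 0, with DNAJC11 at -0.01. The grouping by compartment was made after the values were seen, from general knowledge of the proteins.

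**Figure D2:**
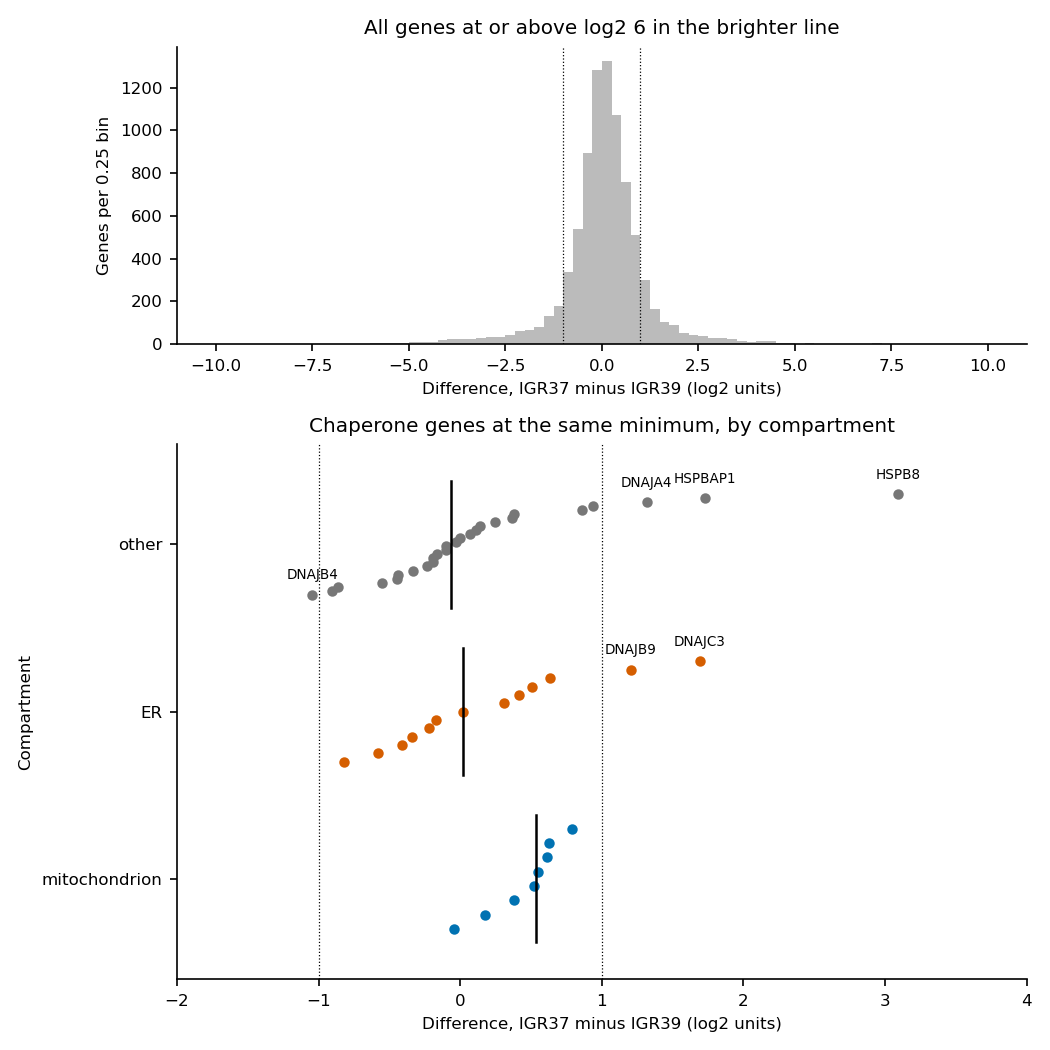
Top, the number of genes at or above log2 6 by their difference, IGR37 minus IGR39 in log2 units. Bottom, on a narrower axis, 1 point per chaperone gene by compartment, with medians as black bars and the 2-fold limits as dotted lines; the bar lies at 0.53 for the mitochondrion, 0.02 for the ER and -0.06 for the others.

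ER chaperones divided gene by gene. DNAJC3, the P58IPK protein that restrains the eIF2-alpha kinases and feeds clients to BiP, read 7.44 in IGR39 against 9.13 in IGR37. All 4 of its probe sets reached log2 6 in IGR37, and they differed by 1.45 to 2.01. DNAJB9, the ERdj4 protein that helps BiP to hold the sensor IRE1 in check, was at 6.02 and 7.22, a difference of 1.21. Its other probe sets were below the minimum and differed by 0.33 and 0.70. No match to the elements searched above lies in the windows of either gene.

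The other ER genes did not reach 2-fold. DNAJB11, a BiP partner that binds nascent chains, was at 9.58 and 10.09. DNAJC10, a disulphide reductase of ER degradation, was at 8.21 and 7.80, but its 3 probe sets at this level ranged from -0.41 to 0.36. DNAJC1, a membrane J protein at the translocon, was at 8.71 and 7.88, and its 3 probe sets agreed in direction, from -0.82 to -0.58. DNAJB12 and DNAJB14, membrane J proteins of ER-associated degradation, had differences of -0.58 and 0.02. DNAJC14, DNAJC16 and DNAJC18 lay between -0.34 and 0.63. Of the 13 ER genes, 2 (15.4%) were at least 2-fold higher and 0 lower, with a median of 0.02. Over all genes at the minimum these shares were 11.4% and 9.5%, so the share higher was near the background.

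Among J proteins of the cytosol and nucleus, DNAJA4 and DNAJB4 reached 2-fold in opposite directions. DNAJA4, a class A cochaperone of HSP70, read 5.70 in IGR39 against 7.02 in IGR37, with its 3 probe sets at this level between 0.43 and 1.32. DNAJB4, close kin of DNAJB1 and also heat-inducible, read 6.82 and 5.77, and a second probe set gave -1.16. The classic heat shock gene DNAJB1 was at 10.23 and 9.68, and both of its probe sets were lower in IGR37, by -0.55 and -0.47. DNAJB6, a suppressor of polyglutamine aggregation, was at 7.31 and 8.24, a difference of 0.93 that did not reach 2-fold. DNAJB5 differed by -0.45.

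DNAJA1, which supplies HSP70 with clients such as mutant p53, was at 10.68 and 10.52 on 1 probe set and differed by -0.95 on the other. DNAJA2, its relative, was at 7.88 and 7.95. DNAJC9, a histone chaperone with a J domain, was at 9.40 and 8.54, a difference of -0.86, and its second probe set at this level gave -1.19. DNAJC2, which acts at the ribosome, was at 9.65 and 9.22, and DNAJC8, of the spliceosome, at 9.18 and 9.54. DNAJC5, the cysteine string protein of secretory vesicles, was at 7.89 and 7.66. DNAJC7, which carries clients between HSP70 and HSP90, differed by -0.19, and DNAJC13 of endosomes by 0.14. DNAJC21, DNAJC22 and DNAJC24 lay between -0.10 and 0.00. The factor HSF1 itself, which drives the heat shock response, read 7.66 in IGR39 against 7.78 in IGR37.

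**Figure D3:**
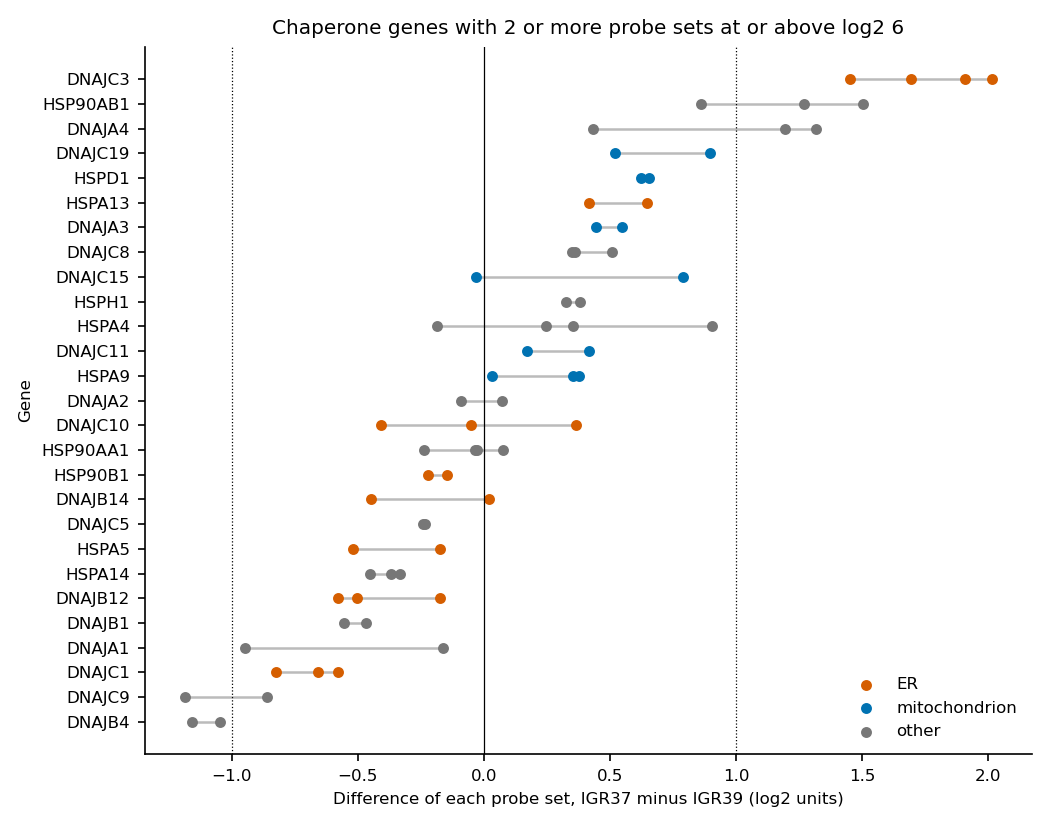
Difference of every probe set at or above log2 6, IGR37 minus IGR39 in log2 units, for the 27 chaperone genes with several such probe sets, coloured by compartment. Points of a gene are joined; those of DNAJC3 lie between 1.45 and 2.01 and those of DNAJB4 between -1.16 and -1.05, while HSPA4 spans -0.19 to 0.90.

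Probe sets mostly shared a direction. In 21 of those 27 genes all probe sets at this level differed one way, and in 6 they did not (DNAJA2, DNAJB14, DNAJC10, DNAJC15, HSP90AA1 and HSPA4). The same share was not computed over the 3178 genes with several such probe sets, so it cannot be called particular to chaperone genes. Of the 6 genes past the limit, DNAJC3, DNAJA4 and DNAJB4 had several probe sets at this level, and HSPB8, HSPBAP1 and DNAJB9 had 1. In 4 of the 6 the dimmer line lay below log2 6, the exceptions being DNAJC3 and DNAJB9. The genes that passed 2-fold by the least were DNAJB9 at 1.21, DNAJA4 at 1.32 and, as the only gene on the lower side, DNAJB4 at -1.05. Those nearest to 2-fold without reaching it were DNAJB6 at 0.93, HSP90AB1 at 0.86, HSPB1 at -0.91 and DNAJC9 at -0.86. Centring on housekeeping genes put 4 genes past the lower limit in place of 1, with HSPB1 at -1.09 and DNAJC9 at -1.05.

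The genes with a heat shock element did not share a direction. Of 11 at the minimum with a 2-unit match, 2 passed 2-fold upwards (HSPB8 and DNAJA4), 1 downwards (DNAJB4) and 8 did not reach it. Over all genes at the minimum 11.4% passed it upwards and 9.5% downwards, with a median size of 0.45. The differences of the 11 had a median of 0.62 and a median size of 0.86, and went above 0 in 6 and below in 5. The 31 with a window and no match had a median of 0.14 and a median size of 0.38, with 3 at least 2-fold higher and 0 lower. The difference between these sets was not tested, and a match is no evidence that HSF1 binds there.

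Below log2 6 in both lines were 28 genes, with levels from 2.79 to 5.94. One of these, DNAJC12, stood out from the rest. It encodes a cochaperone of the aromatic amino acid hydroxylases, and read 3.72 in IGR39 against 5.78 in IGR37, and its remaining probe sets gave 0.70 and 1.16. Apart from it and CRYAB, the differences of the probe sets used lay between -0.50 (DNAJC6, an uncoating factor of clathrin vesicles) and 0.41 (HSPA12A). The others with protein products were DNAJB2, DNAJB7, DNAJB8, DNAJB13, DNAJC4, DNAJC5B, DNAJC5G, DNAJC17, DNAJC27 and DNAJC28. DNAJC4 was at 5.94 and 5.90 on the probe set used, but another of its 5 read 5.71 in IGR39 against 4.38 in IGR37, or -1.33. The remaining ones differed by -0.32 to 0.18. The 5 noncoding transcripts, DNAJB8-AS1, DNAJC27-AS1, DNAJC3-DT, DNAJC9-AS1 and HSPA2-AS1, were between 3.25 and 3.84. DNAJC3-DT, divergent to DNAJC3, was at 3.73 and 3.84, where no difference can be read.

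Partner genes were described from fixed lists that hold no chaperone gene counted above. Of 27 cochaperones of HSP90 and HSP70, 26 were measured and 23 reached log2 6, with 1 at least 2-fold higher and 1 lower. Each count is 4.35% of the 23, beside 11.4% higher and 9.5% lower over all genes. The list median was 0.31, or 0.13 when centred on housekeeping genes, and that of all genes was 0.07 before centring. FKBP5, an HSP90 cochaperone of steroid receptors, read 4.55 in IGR39 against 6.63 in IGR37 on the only 1 of its 3 probe sets at the minimum, and the mean over the 3 was 1.11. BAG3 was the lower one. The HSP90 cochaperone PTGES3 was at 11.24 and 11.20. In the CCT chaperonin of the cytosol and its partner prefoldin, 12 of 13 measured genes reached the minimum. PFDN2, at 8.69 and 9.82, and CCT6A, at 9.78 and 10.83, passed 2-fold upwards, or 16.7% of the 12, and 0 passed it downwards. The list median was 0.25, or 0.07 when centred on housekeeping genes. CCT6A had 0.47 on its other probe set, and CCT4 was at 11.40 and 11.75.

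Of 12 measured mitochondrial partners, 11 reached the minimum and 9 of these had differences above 0, beside 54.5% of all genes and 16 of 25 housekeeping genes. The 9 include CLPX at 0.02 and GRPEL1 at 0.08. AFG3L2, a protease of the inner membrane, was at 7.78 and 9.75, and LONP1, the matrix protease, at 7.99 and 9.27. These 2 passed 2-fold upwards, or 18.2% of the 11, and 0 downwards, beside 11.4% and 9.5% of all genes. LONP1 rests on its only probe set, and a probe set of AFG3L2 below the minimum differed by 0.27. The list median was 0.32, or 0.13 when centred on housekeeping genes. YME1L1, another protease, was at 9.23 and 8.83.

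In the list of ER folding and the unfolded protein response, 21 of 23 measured genes reached the minimum, with 3 at least 2-fold higher, 1 lower and a median of 0.33. These counts are 14.3% and 4.76% of the 21, beside 11.4% and 9.5% of all genes. HERPUD1, of ER-associated degradation, was at 7.94 and 10.72, and EIF2AK3, the sensor kinase PERK, at 5.83 and 7.53. Their second probe sets, below the minimum, differed by 0.21 and -0.28. SEC63, the J protein of the translocon that lacks a DNAJ symbol, was at 7.51 and 8.86, while its second probe set at the minimum differed by 0.68 and the mean over all 5 was 0.48. PPP1R15A, which reverses eIF2-alpha phosphorylation, was at 9.07 and 8.06. The lectin chaperone CANX was at 12.41 and 12.21, and DDIT3, the stress factor CHOP, was at 7.02 and 6.86.

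Of 13 measured HSF relatives, regulators and other heat-inducible genes, 11 reached the minimum, with 0 at least 2-fold higher and 2 lower, and a median of -0.31. The 2 lower are 18.2% of the 11. Over all genes at the minimum 9.5% were lower by as much and 11.4% higher. SERPINH1, the collagen chaperone HSP47, read 9.16 in IGR39 against 6.98 in IGR37 on its only probe set. CLU, the secreted chaperone clusterin, read 7.29 and 4.07, and a second bright probe set gave -2.87. UBB, a ubiquitin gene, was at 13.07 and 13.21. For comparison, 25 measured housekeeping genes had a median of 0.19.

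**Figure D4:**
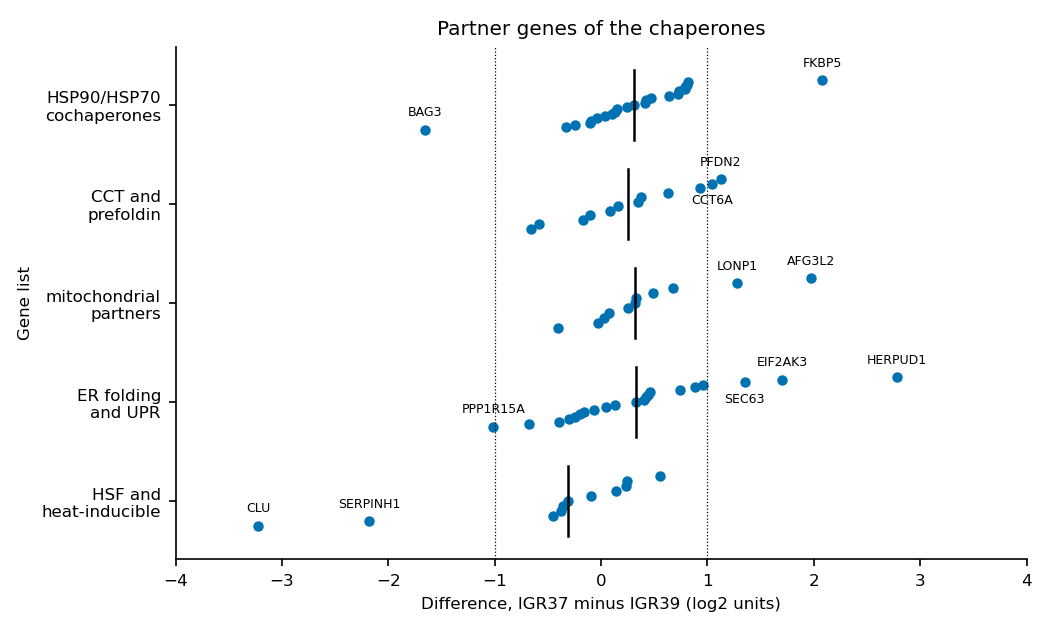
Difference of each partner gene at or above log2 6, IGR37 minus IGR39 in log2 units, in 5 lists, with medians as black bars, the 2-fold limits as dotted lines and genes past them named. HERPUD1 lies farthest to the right at 2.78 and CLU farthest to the left at -3.22.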

How the data were processed

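Biotin-labelled RNA of each line went on 1 array. The deposited log2 levels per probe set come from the authors' RMA run with affy, per the submitters' processing notes. No version is named in these sources, nor which arrays were normalised together. RMA aligns the distributions of arrays and compresses differences between low levels. Names came from the platform annotation and were updated to RefSeq symbols (GRCh38.p14) by gene identifier. Of the probe sets, 41091 had 1 symbol, while 1801 with several were left out. Each gene was represented by its probe set of highest mean, and counts needed log2 6 in the brighter line. The number of arrays limits the precision, and no test was run.

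Members and lists were chosen with earlier results of these data known. The rule for named genes took members past 2-fold, those next to the limit, the member of highest mean in each family or list and 14 named whatever their value, of which HSF2 and HSPA8 have none. From each partner list it took at most 6 genes past the limit, and all other genes were named after their values were seen. Alternatives were minima of log2 5, 7 or none, the mean over probe sets, dropping _x_at and _s_at probe sets, and 3 scalings (array medians, lowess with a span of 0.3, housekeeping genes). The calculation was tested on simulated data. The tools were Python 3.11.15, numpy 2.4.6, pandas 2.3.3, statsmodels 0.14.6 and matplotlib 3.10.9.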

Additional observations from a re-analysis of the deposited data

Results flagged for a closer look

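A signal was present in probe sets that entered no gene value. Of 14 probe sets whose several symbols include at least 1 heat shock or DNAJ symbol, 13 reached log2 6 in the brighter line. The differences of the 13 ranged from -0.83 to 0.52 with a median of 0.24, so 0 of them passed 2-fold. Of all genes at that minimum, 21% passed it in either direction. The share over all probe sets was not computed.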

How the results depend on the processing

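Counts were compared at 1.5 times, the median over all members at the SD of the hybridisation spike-ins (0.08), and family, list and gene values at the probe-set SD over all genes (0.40). Families under 3 members at the minimum have no median. The SD of 0.40 for family and list values and this limit of 3 were set after the values were seen. Of 341 values of single members under the alternatives, 336 moved by less than 0.40 and 0 of those at 2-fold changed sign. The minima change only which genes are kept, so no member's value could move there. Centring on array medians or housekeeping genes shifts all members by a constant smaller than 0.40. Most of the 336 were thus fixed by the settings. The 5 that moved did so with the mean over probe sets or without _x_at and _s_at probe sets. There were 13 sign changes in 8 members.

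The members higher by 2-fold or more numbered 5, and 3 once _x_at and _s_at probe sets were dropped, where HSPB8 and DNAJB9 fell out. With the mean over all probe sets they numbered 4, since DNAJA4 and DNAJB9 did not reach the minimum and HSP90AB1 entered at 1.21. The 1 lower by as much became 0 at a minimum of log2 7, 2 with the lowess trend removed and 4 centred on housekeeping genes. In an alternative added after the data were seen, log2 6 in both arrays, 2 were higher and 0 lower. The members' median was -0.017 with the lowess trend removed and -0.12 centred on housekeeping genes, as over all genes (-0.01 and -0.12). The DNAJB median was 0.51 at a minimum of log2 7, where DNAJB4, DNAJB5 and DNAJB14 dropped out. The HSP90 median was 0.47 without _x_at and _s_at probe sets, where HSP90B1 dropped out and only HSP90AA1 and HSP90AB1 were left. Both moves came with lost genes.

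Of the partner lists, cochaperones had 0 genes higher at log2 7 or with the mean over probe sets, and 0 lower without _x_at and _s_at probe sets. CCT and prefoldin had 1 higher with the mean over probe sets and without those probe sets, and 0 with either the lowess or the housekeeping scaling. Mitochondrial partners had 1 higher without those probe sets. The ER list had 1 higher with the mean over probe sets and without those probe sets, and 0 lower with the mean over probe sets and centred on array medians. Heat-inducible genes had 1 lower with the mean over probe sets and without those probe sets. Causes were not tested. No paired analysis was possible because each line has 1 array.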
